A study of Mus musculus with 22 samples.

Results

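miR-192-5p and miR-194-5p are the main mature strands of a pair of linked liver miRNA genes, and their levels were followed in cultured mouse hepatocytes exposed to cyclosporin A. They were chosen by name, as the 2 entries named mmu-miR-192-5p and mmu-miR-194-5p among 1247 mouse miRNAs on the array. The rule that picks them uses names and no measured value, but the pair was proposed with earlier results of these data known. Primary hepatocytes of C57Bl6 background received cyclosporin A (CsA), a calcineurin inhibitor given against transplant rejection that is known to impair bile flow, in 0.5% DMSO, or the DMSO alone. Single-colour Agilent arrays measured miRNAs on 22 samples, taken after 24 h or 48 h. By the names of the array files, CsA at 10 µM was measured on 3 arrays at 24 h and 3 at 48 h, CsA at 50 µM on 2 arrays at 24 h and 3 at 48 h, and DMSO on 5 arrays at 24 h and 6 at 48 h. The labels call the replicates biological without saying whether they came from separate animals, so the p-values measure the spread between these samples. The descriptions also carry Ex. numbers from 1 to 3. At either time the CsA arrays, doses pooled, and the DMSO arrays carry the same 3 numbers. Numbers thus recur within each pooled group of 5 or 6 arrays, among DMSO arrays and between the 2 CsA doses. At 48 h every number recurs in both groups. The main tests treat every array as a separate sample, and a block by these numbers is described at the end. One treatment field of the labels speaks of HepG2 cells, while every other field names primary mouse hepatocytes.

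A miRNA is a short RNA that guides an Argonaute protein to messenger RNAs, mainly by pairing through its seed, bases 2 to 8 from its 5′ end, and the paired messages are repressed. miR-192 and miR-194 are produced together from shared primary transcripts and are enriched in liver, intestine and kidney. In human cells, p53 raises the transcript that carries them. The same tissue makes miR-122, the hallmark miRNA of hepatocytes, which served here as a within-array comparator.

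The mature sequences are shown because the pair shares transcripts but no seed, and because miR-192-5p has a near copy, miR-215-5p. All are from RefSeq for build GRCm38.p6, written 5′ to 3′ with the seed in capitals.
miR-192-5p: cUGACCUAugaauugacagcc
miR-194-5p: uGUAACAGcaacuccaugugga
miR-215-5p: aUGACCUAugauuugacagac
miR-192-5p lies on the plus strand at chr19:6264857-6264877, within the Mir192 hairpin. The sequence of miR-194-5p is encoded at 2 places, in Mir194-2 at chr19:6264658-6264679 and in Mir194-1 at chr1:185313325-185313346, both on the plus strand. An array cannot tell these sources apart. Only 115 bases separate the Mir194-2 and Mir192 hairpins on chromosome 19, where neither overlaps another listed gene. Mir194-1 and Mir215 are 195 bases apart on chromosome 1, within the span of Iars2, the gene of mitochondrial isoleucyl-tRNA synthetase. miR-192-5p and miR-215-5p share the seed UGACCUA and 18 of 21 bases, and differ by C1A, A12U and C20A, with the base of miR-192-5p first and positions counted from its 5′ end. Of 1679 named mature miRNAs in the RefSeq table, these 2 carry that seed, and only miR-194-5p carries GUAACAG.

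Both miRNAs were measured far above the array background. Each had 2 probes, and the brighter one was used. All 22 arrays read it as well above background, with 18 to 20 spots kept for miR-192-5p and 15 to 20 for miR-194-5p. The processed signal of miR-192-5p ran from 839 to 1557 with a median of 1059, and its spots varied with a median coefficient of variation of 7.59%. The signal of miR-194-5p ran from 319 to 644 with a median of 406 and a spot variation of 7.75%. Over the arrays, the 2 probes of miR-192-5p tracked each other with r = 0.985 and those of miR-194-5p with r = 0.979. The standard error that the spots left on an array's value reached at most 0.05 on the log2 scale for either miRNA. Replicate arrays of a condition differed by much more, with SDs of 0.20 to 0.25 for miR-192-5p and 0.18 to 0.29 for miR-194-5p, so the replicates and not the spots set the precision. In what follows a level is the log2 of the signal divided by the array's own 75th percentile over 281 well-measured probes. It can be compared between arrays but not between miRNAs.

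Facts of the whole set bear on every result. The deposited value table and the array files name the samples differently: when columns were matched to arrays by their values, the sample name differed for 16 of 22. Of these, 8 are CsA arrays and 8 are DMSO arrays, the time and the treatment stay the same, and a CsA array changes only its dose. Dose results are therefore given by file names first and by value-table names second, and results with the doses pooled hold under both. The arrays sat on 3 slides, which the conditions filled unevenly: the CsA arrays at 48 h had 4 on slide 1 and 2 on slide 3, and the DMSO arrays at 48 h had 1 on slide 1, 2 on slide 2 and 3 on slide 3. The CsA arrays at 24 h had 1, 3 and 1 on slides 1, 2 and 3, and the DMSO arrays at 24 h had 2, 2 and 1. The 75th percentile ran from 188 to 605.4 over the arrays, and the array filed as CsA 10 µM, 48 h, replicate 3 had the highest value. All 4 hepatocyte markers, which are miR-122-5p, miR-122-3p and the pair itself, were above background on all 22 arrays, while 0 of 4 leukocyte, 0 of 5 biliary and 0 of 2 erythroid markers were on any. Of 2 endothelial markers, miR-126-3p was above background on 20 arrays and miR-126-5p on 0, and of 5 mesenchymal markers miR-145a-5p was on 12 and the other 4 on 0. At 48 h the summed scaled signal of the endothelial list ran from 0.0845 to 0.163 on CsA arrays and from 0.0676 to 0.168 on DMSO arrays, and that of the mesenchymal list from 0.0638 to 0.124 and from 0.0330 to 0.133. Their part in the results was not tested. The summed scaled signal of the hepatocyte list, which includes the pair, ran at 48 h from 45.4 to 57.3 with CsA and from 43.9 to 55.3 with DMSO. In such bulk samples a smaller share of hepatocytes and less miRNA per hepatocyte cannot be told apart.

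**Figure D1:**
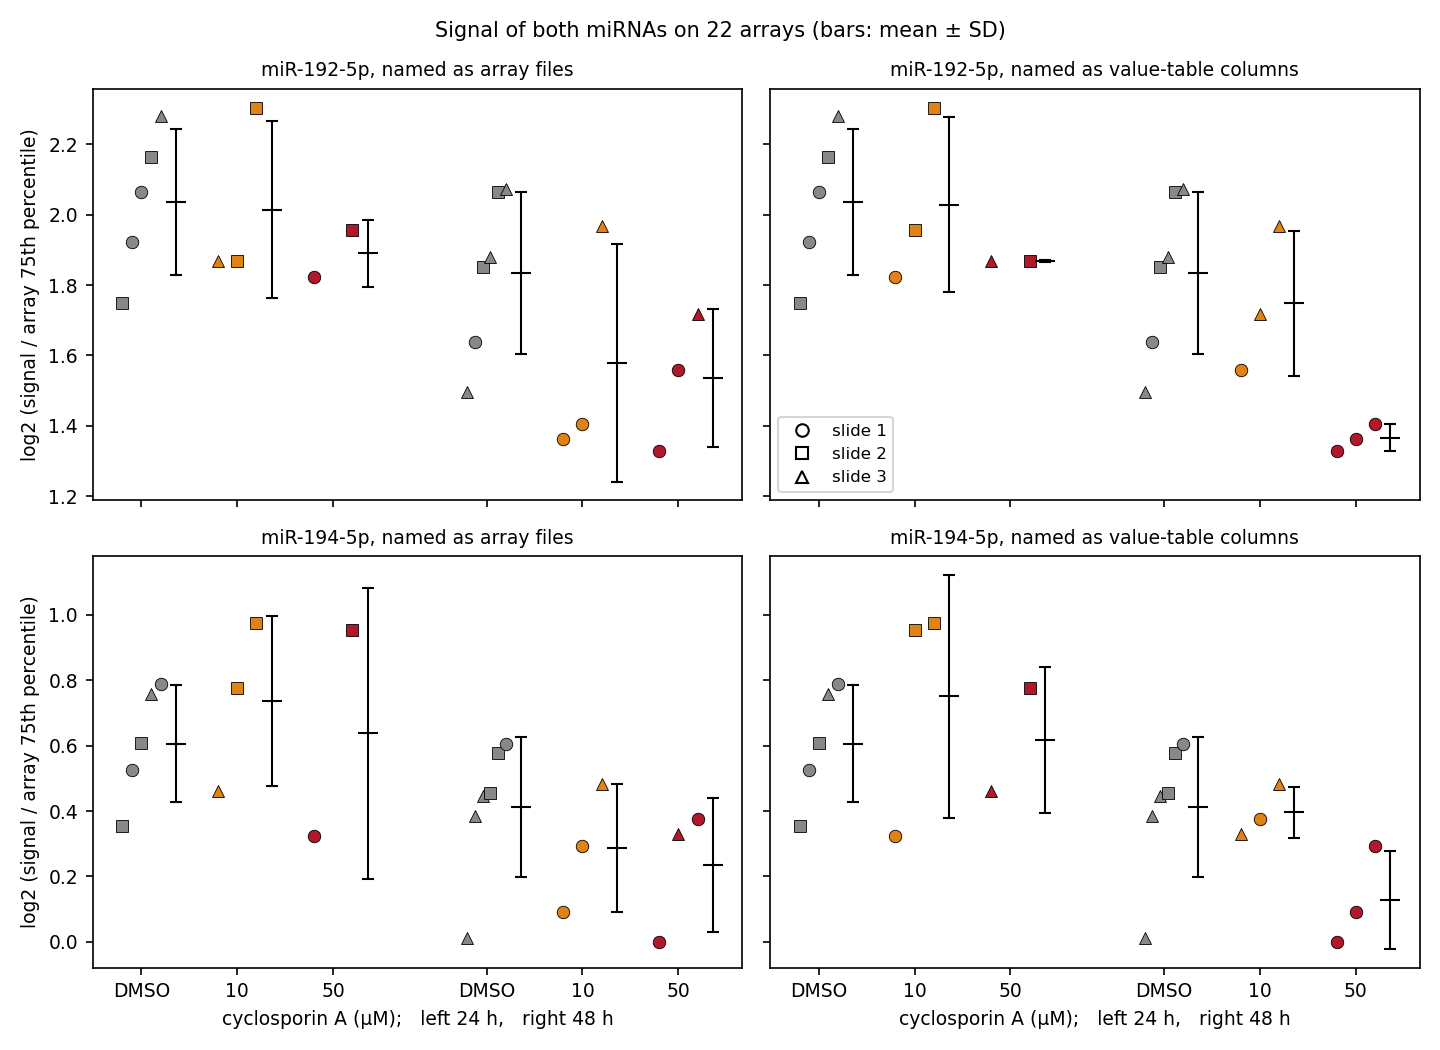
Levels of miR-192-5p (top) and miR-194-5p (bottom) on every array, as log2 of the signal over the array's 75th percentile, by dose and time, named by the array files (left) or the value-table columns (right). Shapes give the slide and bars the mean ± SD; under value-table names the 3 arrays of 50 µM at 48 h lie between 1.33 and 1.41 for miR-192-5p, and all are on slide 1.

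After 24 h neither difference from DMSO passed the test, and both were smaller than the SD between replicates. miR-192-5p stood at 2.30, 1.87 and 1.87 on the 10 µM arrays and at 1.82 and 1.96 on the 50 µM arrays, against 2.28, 1.92, 2.16, 1.75 and 2.06 on the DMSO arrays. The treated arrays lay within the DMSO range apart from the highest 10 µM array. With doses pooled it averaged 1.96 ± 0.20 with CsA and 2.04 ± 0.21 with DMSO (SD, n = 5 each), a log2 fold change of -0.07 ± 0.14 (SE; limma with Benjamini-Hochberg adjustment, adjusted p = 1). miR-194-5p read 0.98, 0.46 and 0.78 at 10 µM and 0.32 and 0.95 at 50 µM, against 0.76, 0.53, 0.61, 0.35 and 0.79 with DMSO. The CsA arrays thus spread to both sides of the DMSO arrays. Their mean was 0.70 ± 0.29, and that of the DMSO arrays 0.61 ± 0.18 (SD, n = 5 each), a log2 fold change of 0.09 ± 0.14 (adjusted p = 0.998 by limma). None of the 288 miRNAs tested passed here by limma (0%), and 19 had an unadjusted p under 0.05. The called count was 4 without DMSO replicate 1, 3 without DMSO replicate 4, and 0 without any other single array. The 95% intervals, from -0.37 to 0.23 for miR-192-5p and from -0.20 to 0.39 for miR-194-5p, are the sizes that these arrays leave possible. Within slide 2, which held 3 CsA and 2 DMSO arrays, miR-194-5p differed by 0.42 and miR-192-5p by 0.09, whereas within slides 1 and 3 both differences were negative, with 1 CsA array in each.

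After 48 h both averages were lower with CsA, and neither difference passed the test. Over the 6 CsA arrays miR-192-5p ran from 1.33 through a median of 1.48 to 1.97, and over the 6 DMSO arrays from 1.498 through 1.87 to 2.07. The ranges overlapped, with 3 CsA arrays below the lowest DMSO array. The means were 1.56 ± 0.25 and 1.83 ± 0.23 (SD, n = 6 each), a log2 fold change of -0.28 ± 0.13 with a 95% interval from -0.55 to -0.0037, or 0.825 times the DMSO level. The unadjusted p of 0.0472 became an adjusted p of 0.172 over all 288 miRNAs (limma), and it was the 78th smallest. miR-194-5p ran from 0.00 through 0.31 to 0.48 with CsA and from 0.01 through 0.45 to 0.61 with DMSO, so the CsA range lay almost wholly inside the DMSO range. Its means were 0.26 ± 0.18 and 0.41 ± 0.21 (SD, n = 6 each), a log2 fold change of -0.15 ± 0.13 (adjusted p = 0.472 by limma). Neither member was among the 3 of 288 miRNAs called at this time (1.04%), of which 2 were lower (0.694%). That count rests on single arrays: it was 59 without DMSO replicate 5, 38 without replicate 1 of 10 µM, 27 without replicate 2 of 50 µM, 6 without replicate 3 of 50 µM, and 1 or 2 without any other one of the 12 arrays.

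The slides weigh on the 48 h values. On slide 1, with 4 CsA arrays and 1 DMSO array, miR-192-5p differed by -0.22 and miR-194-5p by -0.42. On slide 3, with 2 CsA and 3 DMSO arrays, the differences were 0.03 and 0.12. With slide as a block the fold change of miR-192-5p was -0.16 (adjusted p = 0.605) and that of miR-194-5p -0.09 (adjusted p = 0.861). The scaling weighs on them as well: dividing by the 75th percentile over all probes gave -0.70 for miR-192-5p (adjusted p = 0.0915) and -0.57 for miR-194-5p (adjusted p = 0.118). That scaling also moved the median of all miRNAs, and relative to the median the values were -0.54 and -0.41, against -0.38 and -0.25 under the scaling used throughout. Whether CsA acted differently at the later time was tested directly: the CsA effect at 48 h minus that at 24 h was -0.21 ± 0.19 for miR-192-5p and -0.24 ± 0.19 for miR-194-5p (adjusted p = 0.796 for both by limma). No miRNA passed that test (0 of 288, 0%), with 7 at an unadjusted p under 0.05.

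By dose, the outcome at 48 h turned on which names are used. With file names, miR-192-5p averaged 1.83 ± 0.23 with DMSO (n = 6), 1.58 ± 0.34 at 10 µM and 1.54 ± 0.20 at 50 µM (SD, n = 3 each). The arrays read 1.97, 1.41 and 1.36 at 10 µM and 1.33, 1.56 and 1.72 at 50 µM, so both doses overlapped DMSO and each other. The log2 fold change against DMSO was -0.26 ± 0.17 at 10 µM (adjusted p = 0.373 by limma) and -0.30 ± 0.17 at 50 µM (adjusted p = 0.574). At 10 µM, 18 of 288 miRNAs were called (6.25%), and at 50 µM 1 of 288 (0.347%). The count at 10 µM was 88 without replicate 1 of 10 µM, 68 without DMSO replicate 5, 0 without replicate 2 or 3 of 10 µM, and 2 or 3 without any other DMSO array. At 50 µM it was 0 without replicate 1 or 2 of 50 µM. miR-194-5p gave -0.13 ± 0.17 at 10 µM (adjusted p = 0.709) and -0.18 ± 0.17 at 50 µM (adjusted p = 0.785). The 50 µM minus 10 µM difference was -0.04 ± 0.19 for miR-192-5p and -0.05 ± 0.19 for miR-194-5p, with 0 of 288 miRNAs called by limma (0%) and 16 at an unadjusted p under 0.05. Without replicate 1 of 10 µM, 18 were called.

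With value-table names, miR-192-5p fell at 50 µM, and its difference at 10 µM did not pass the test. The 50 µM arrays then read 1.33, 1.41 and 1.36, below every DMSO array and below the 10 µM arrays at 1.97, 1.56 and 1.72. Of 288 miRNAs, 29 were likewise lower than DMSO without overlap (10.1%). The mean of the 50 µM arrays was 1.37 ± 0.04 (SD, n = 3), and the log2 fold change against DMSO was -0.47 ± 0.14, or 0.723 times (limma, adjusted p = 0.0149). This call stands among 109 of 288 miRNAs called in that comparison (37.8%), 30 of them lower (10.4%). The count was 173 without DMSO replicate 6 and 72 without replicate 3 of 50 µM. miR-194-5p read 0.00, 0.29 and 0.09 at 50 µM and gave -0.29 ± 0.15 (adjusted p = 0.134). At 10 µM the values were -0.09 ± 0.14 for miR-192-5p and -0.02 ± 0.15 for miR-194-5p (adjusted p = 1 for both), with 3 of 288 miRNAs called (1.04%). Set against 10 µM, the 50 µM arrays differed by -0.38 ± 0.17 for miR-192-5p (adjusted p = 0.0952 by limma) and by -0.27 ± 0.18 for miR-194-5p (adjusted p = 0.237), without overlap for either. In that contrast 82 of 288 miRNAs were called (28.5%), and 74 were lower at 50 µM without overlap (25.7%). The called count was 45 and 54 without replicate 1 or 2 of 10 µM, and 49 without replicate 3 of 50 µM.

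All 3 arrays of 50 µM under value-table names were on slide 1, beside 1 DMSO array at 1.64 for miR-192-5p, and the within-slide differences were -0.27 for miR-192-5p and -0.48 for miR-194-5p. With slide as a block miR-192-5p gave -0.30 and lost the call (adjusted p = 0.197). The call was also lost without replicate 3 of the 50 µM arrays (-0.47, adjusted p = 0.0554), which is the array filed as CsA 10 µM, 48 h, replicate 3. Leaving out the array filed as DMSO, 48 h, replicate 5, which the value table names replicate 6, brought miR-194-5p to -0.37 and an adjusted p of 0.0324, and scaling over all probes brought it to -0.86 (adjusted p = 0.0162).

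At 24 h no difference of a dose from DMSO passed the test under either naming. For miR-192-5p the log2 fold changes by file names were -0.02 ± 0.17 at 10 µM and -0.15 ± 0.20 at 50 µM, and by value-table names -0.01 ± 0.15 and -0.17 ± 0.17. Those of miR-194-5p were 0.13 ± 0.17 and 0.03 ± 0.20 by file names, and 0.14 ± 0.16 and 0.01 ± 0.18 by value-table names. The lowest adjusted p by limma was 0.702. By file names 0 of 288 miRNAs were called at either dose (0%), with 21 and 7 at an unadjusted p under 0.05, and by value-table names 0 at 10 µM (0%), with 16 such miRNAs, and 11 at 50 µM (3.82%). That last count was 3 and 1 without replicate 2 or 3 of 50 µM, and 19 without DMSO replicate 3. By file names 1 miRNA was called at 10 µM without DMSO replicate 1.

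**Figure D2:**
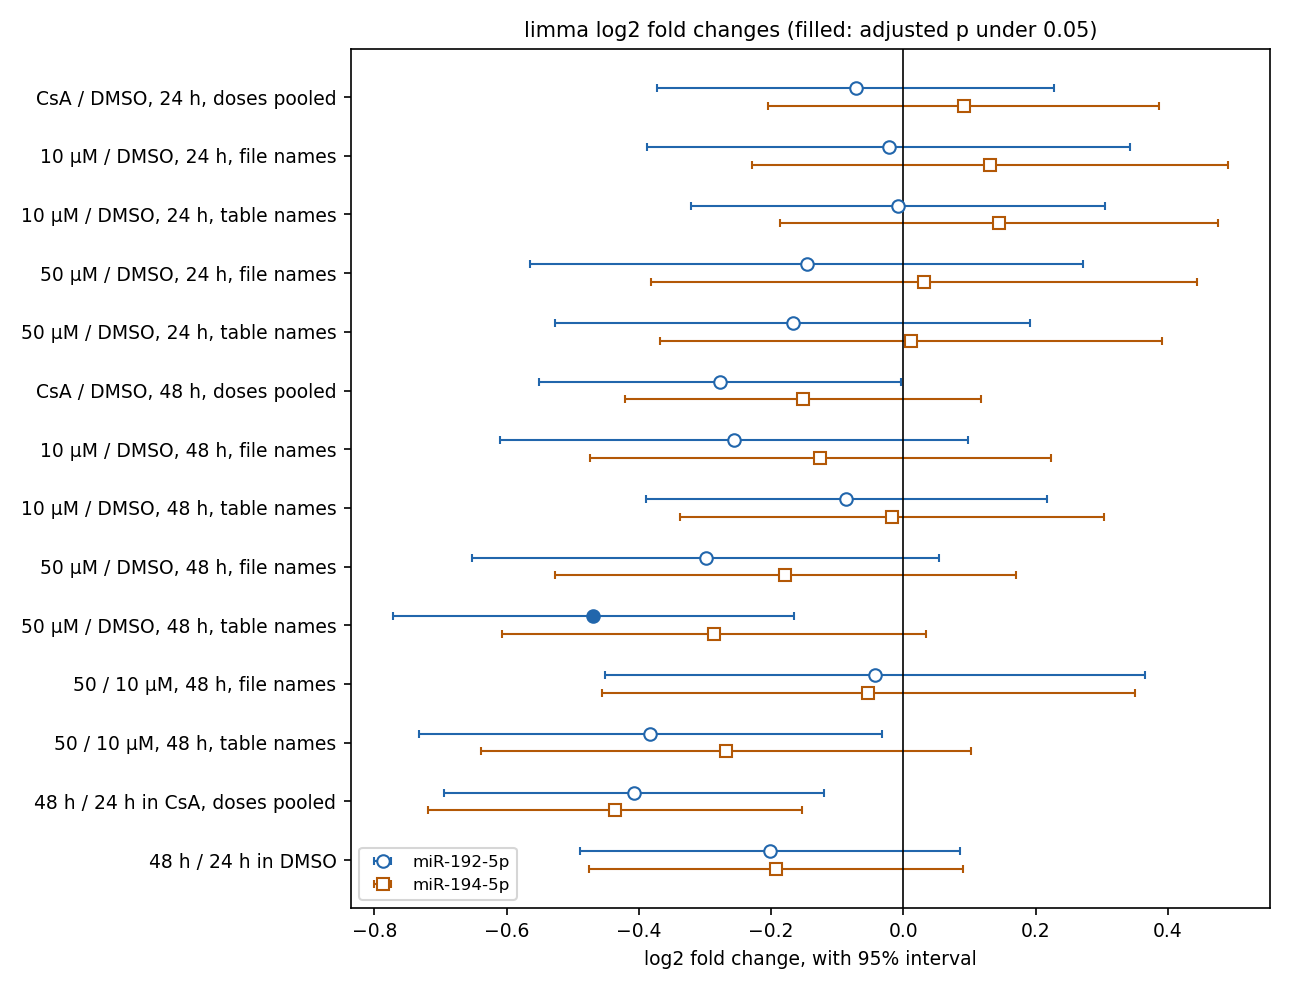
Log2 fold changes of miR-192-5p (circles) and miR-194-5p (squares) with 95% intervals from the limma models, by comparison and by source of the sample names. Only miR-192-5p at 50 µM and 48 h under value-table names is filled, at -0.47 with an adjusted p of 0.0149.

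With longer culture the averages of both miRNAs were lower, and no difference passed the test. The averages fell by more in CsA than in DMSO arrays, but that contrast did not pass either. It was -0.21 ± 0.19 for miR-192-5p and -0.24 ± 0.19 for miR-194-5p (adjusted p = 0.796 for both by limma), and on slide 3 the order was the reverse. In CsA arrays at 48 h minus those at 24 h, miR-192-5p differed by -0.41 ± 0.14 (0.754 times) and miR-194-5p by -0.44 ± 0.14 (0.739 times). Their unadjusted p-values of 0.00775 and 0.00433 were the 16th and 10th smallest of 288, and after adjustment over all miRNAs they were 0.140 and 0.108 (limma). Of 288 miRNAs 1 was called (0.347%), and 0 with slide as a block. The ranges still overlapped: the highest 48 h value was 1.97 for miR-192-5p and 0.48 for miR-194-5p, against lowest 24 h values of 1.82 and 0.32. The median miRNA moved the other way by 0.16, and relative to it the members stood at -0.56 and -0.59. In DMSO arrays the 48 h minus 24 h difference was -0.20 ± 0.14 for miR-192-5p and -0.19 ± 0.14 for miR-194-5p (adjusted p = 0.633 and 0.662), with 0 of 288 called by limma (0%) and 38 at an unadjusted p under 0.05. Without replicate 1 at 24 h or replicate 5 at 48 h, 4 were called. Within slide 1 the CsA time difference was -0.41 for miR-192-5p and -0.13 for miR-194-5p (4 arrays at 48 h, 1 at 24 h), and within slide 3 it was -0.03 and -0.05 (2 and 1). With slide as a block it came to -0.31 and -0.34 (adjusted p = 0.567 for both). In DMSO arrays the differences were -0.36 and -0.05 on slide 1, 0.00 and 0.04 on slide 2, and -0.46 and -0.48 on slide 3.

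Ordered by mean over the 4 conditions, miR-192-5p was highest in DMSO at 24 h, then CsA at 24 h, DMSO at 48 h and CsA at 48 h. miR-194-5p had CsA at 24 h first, then DMSO at 24 h, DMSO at 48 h and CsA at 48 h. Each condition overlapped its neighbour in this order for both miRNAs, and 0 of 6 pairs of conditions were free of overlap.

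The levels of the pair moved together from array to array. Over 22 arrays Pearson's r was 0.780 (two-sided permutation p = 4e-05, adjusted p = 3.2e-04 over 8 such correlations) and Spearman's rho 0.759 (permutation p = 8e-05, adjusted p = 6.4e-04). Without the 2 arrays farthest from the median of miR-192-5p, r was 0.688 (permutation p = 0.00082). After subtraction of each condition's mean it was 0.671 (permutation p = 0.00032, n = 22). These deviations were permuted over all 22 arrays although the subtraction ties them within a condition, so that p-value is approximate and may be too small. By time, r was 0.658 over 10 arrays at 24 h and 0.710 over 12 arrays at 48 h (permutation p = 0.0412 and 0.00982). By slide it was 0.842 on slide 1 (n = 8, exact permutation p = 0.00928), 0.487 on slide 2 (n = 7, exact permutation p = 0.265) and 0.951 on slide 3 (n = 7, exact permutation p = 0.00357). Both values of an array share its RNA sample, labelling and scaling factor.

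**Figure D3:**
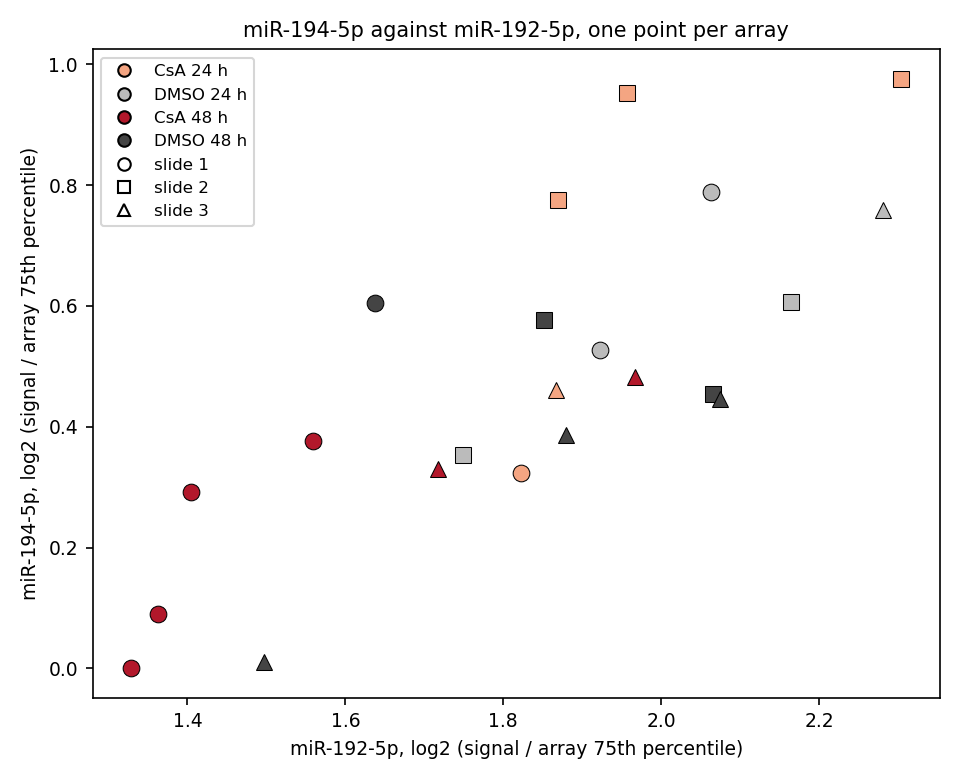
Level of miR-194-5p against that of miR-192-5p, 1 point per array, both as log2 of the signal over the array's 75th percentile, with colours for condition and shapes for slide. The points rise together (r = 0.780), and the lowest values of miR-192-5p are those of 3 CsA arrays at 48 h on slide 1.

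The miRNAs whose arrays followed miR-192-5p most closely, out of 287 others, were miR-30a-3p (r = 0.942), miR-30e-5p (0.925), miR-30a-5p (0.920), miR-26a-5p (0.901) and miR-378b (0.899). For miR-194-5p they were miR-30a-5p (0.897), miR-152-3p (0.793), miR-30e-5p (0.783), miR-192-5p (0.780) and miR-30a-3p (0.741). Members of the miR-30 family, abundant in many epithelial tissues, thus took 3 of the 5 places in each list. miR-194-5p ranked 21st for miR-192-5p. miR-122-5p ranked 47th with r = 0.681 for miR-192-5p and 29th with r = 0.610 for miR-194-5p. The median r over all others was -0.24 and -0.19. These correlations are descriptions over 22 arrays that share the 75th percentile scaling. At 48 h their CsA over DMSO log2 fold changes were -0.54 ± 0.15 for miR-378b (adjusted p = 0.0571 by limma), -0.39 ± 0.17 for miR-152-3p, -0.37 ± 0.15 for miR-26a-5p, -0.30 ± 0.13 for miR-30a-3p, -0.24 ± 0.13 for miR-30e-5p and -0.14 ± 0.11 for miR-30a-5p, none of them called. These miRNAs were picked for following the members over the same arrays, so their signs are no separate evidence.

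Differences within an array remove the array's scaling. miR-192-5p minus miR-122-5p read -4.17, -4.11, -4.03, -3.80, -3.73 and -3.73 on the CsA arrays at 48 h, against -3.82, -3.67, -3.62, -3.57, -3.50 and -3.31 on the DMSO arrays at 48 h. All but 1 of the DMSO arrays lay above all CsA arrays. The means were -3.93 ± 0.20 and -3.58 ± 0.17 (SD, n = 6 each), a difference of -0.35 (exact two-sided permutation p = 0.0108, adjusted p = 0.0974 over the 9 differences tested). It was -0.36 within slide 1 (4 CsA arrays, 1 DMSO array) and -0.14 within slide 3 (2 and 3). Without replicate 5 of the DMSO arrays at 48 h it was -0.39 and passed (exact permutation, adjusted p = 0.0390). The same quantity at 24 h was -3.82 ± 0.15 with CsA and -3.65 ± 0.07 with DMSO (SD, n = 5 each), a difference of -0.17 (exact permutation p = 0.0556, adjusted p = 0.250). On slides 1, 2 and 3 taken alone, the values were -0.26, -0.05 and -0.35.

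miR-194-5p minus miR-122-5p differed by -0.22 at 48 h (exact permutation p = 0.106, adjusted p = 0.318) and by -0.01 at 24 h (exact permutation p = 0.960). miR-122-5p itself had a CsA over DMSO log2 fold change of 0.07 ± 0.09 at 48 h (adjusted p = 0.669 by limma) and 0.10 ± 0.10 at 24 h (adjusted p = 0.986). The balance of the pair, miR-192-5p minus miR-194-5p, averaged 1.30 ± 0.14 with CsA and 1.42 ± 0.23 with DMSO at 48 h (SD, n = 6 each; exact permutation p = 0.258), and 1.27 ± 0.21 and 1.43 ± 0.11 at 24 h (SD, n = 5 each; exact permutation p = 0.190). Between DMSO at 48 h and at 24 h that balance differed by -0.01 (exact permutation p = 0.965), and the differences to miR-122-5p by 0.07 for miR-192-5p and 0.08 for miR-194-5p (exact permutation p = 0.468 and 0.558).

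**Figure D4:**
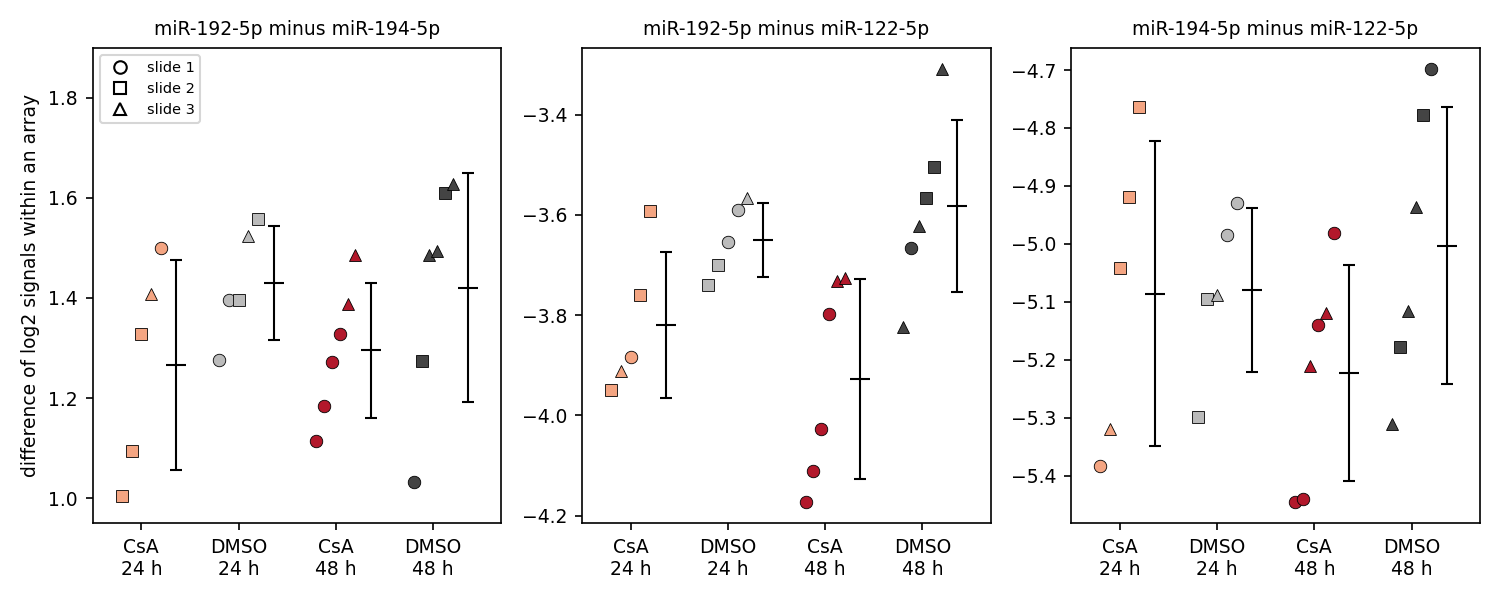
Within-array differences of log2 signals for the pair and for each member against miR-122-5p, 1 point per array by condition, with the slide as the shape and bars for the mean ± SD. In the middle panel the CsA arrays at 48 h average -3.93 and the DMSO arrays at 48 h -3.58.

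The other arms of these genes were dim, and those of chromosome 19 had their lowest scaled signals on CsA arrays. They are the passenger strands, normally discarded when the main strand is loaded.
miR-192-3p: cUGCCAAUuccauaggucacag
miR-194-2-3p: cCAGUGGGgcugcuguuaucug
miR-192-3p comes from Mir192 at chr19:6264900-6264921 and miR-194-2-3p from Mir194-2 at chr19:6264694-6264715, both on the plus strand of GRCm38.p6. The scanner software called miR-192-3p detected on 5 of 5 CsA arrays and 5 of 5 DMSO arrays at 24 h, and on 1 of 6 CsA arrays and 5 of 6 DMSO arrays at 48 h. Its scaled signal, a linear multiple of the array's 75th percentile, ran from 0.0146 to 0.0291 with CsA and from 0.0281 to 0.0434 with DMSO at 48 h. At 24 h it ran from 0.0321 to 0.0527 with CsA and from 0.0409 to 0.0560 with DMSO. The scaled groups overlapped at 24 h, and at 48 h by 1 CsA array and 1 DMSO array. Before scaling, signals at 48 h ran from 4.88 to 14.6 with CsA and from 9.37 to 13.1 with DMSO, so the highest was on a CsA array. At 24 h they ran from 9.28 to 14.3 with CsA and from 9.05 to 17.5 with DMSO. Its brighter probe was well above background on 1 CsA array and 4 DMSO arrays at 24 h and on none at 48 h (0 of 6 and 0 of 6), so no fold is given.

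miR-194-2-3p was well above background on 0 of 22 arrays, and the software called it detected on 3 of 5 DMSO arrays at 24 h and on no other array. Its scaled signal at 24 h ran from 0.0034 to 0.0207 on the CsA arrays and from 0.0250 to 0.0285 on the DMSO arrays. At 48 h it ran from 0.0001 to 0.0081 with CsA and from 0.0149 to 0.0279 with DMSO. These scaled groups did not overlap at either time. Before scaling they overlapped at 24 h, with CsA signals up to 5.79 and DMSO signals from 4.85. At 48 h the unscaled signals reached 3.92 with CsA and started at 4.83 with DMSO. All are close to background: the mean signal of negative controls ran from 0.61 to 3.41 over the arrays. Among 957 miRNAs under the same filter, 5 had lower CsA groups without overlap at 24 h (0.522%), 2 at 48 h (0.209%), and miR-194-2-3p was the 1 miRNA to do so at both (0.104%). The second probe of miR-194-2-3p was dimmer, with scaled signals of at most 0.0061, and its groups overlapped at 48 h. Since no array read it well above background, no fold or test is given. miR-194-1-3p, miR-215-5p and miR-215-3p were detected on 0 of 22 arrays, and all stood at the minimum of the value table in all 22 columns. The near copy miR-215-5p was thus not above background on the arrays that read miR-192-5p.

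**Figure D5:**
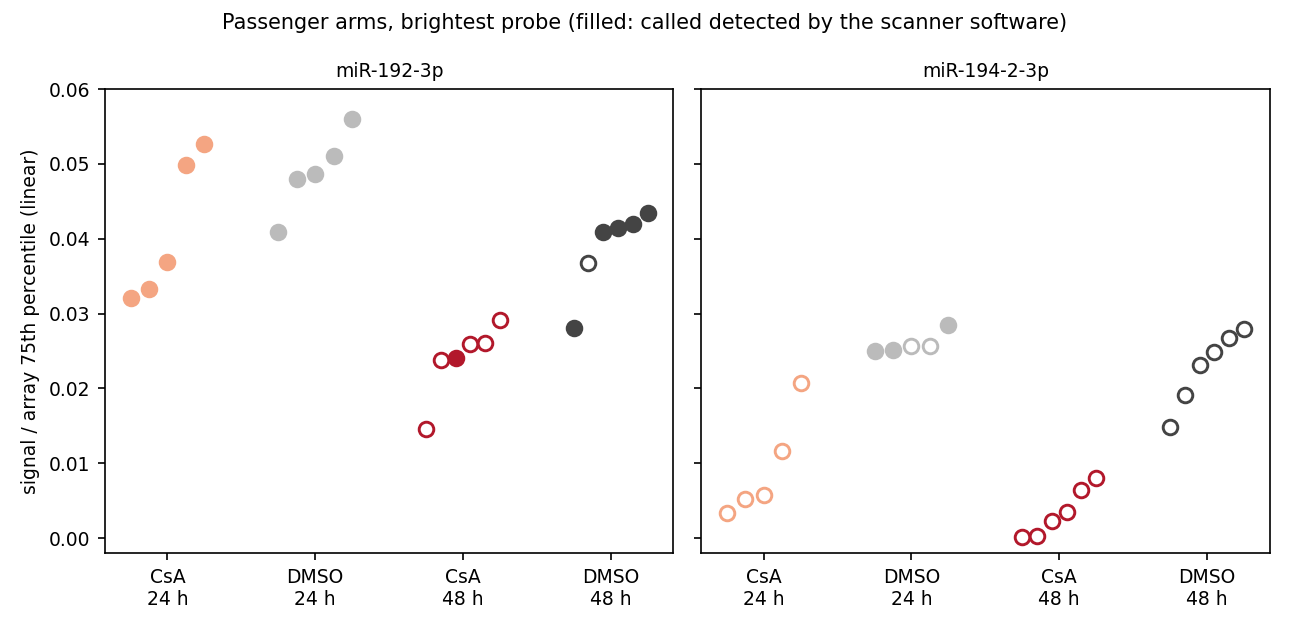
Scaled signal of the brighter probe of miR-192-3p and miR-194-2-3p on every array by condition, on a linear axis, with filled points where the scanner software called the miRNA detected. For miR-194-2-3p the CsA arrays reach at most 0.0207 at 24 h and 0.0081 at 48 h, below the lowest DMSO values of 0.0250 and 0.0149.

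Among 13 other hepatocyte-enriched miRNAs, 11 were tested. With CsA against DMSO, doses pooled, 0 of 11 were called at either time, where 0% of all 288 miRNAs were called at 24 h and 1.04% at 48 h. At 48 h 6 of 11 had negative values, with a median of -0.04 against 0.10 for all miRNAs. In CsA arrays at 48 h against 24 h, 11 of 11 were negative with a median of -0.30 against 0.16 for all miRNAs. Only miR-193a-3p passed, falling by 0.98 ± 0.21 (adjusted p = 0.0329 by limma). It was the 1 of 288 miRNAs called in that comparison (0.347%). With slide as a block or after quantile normalisation the count was 0. It was also 0 without replicate 1 or 2 of 10 µM, or 2 or 3 of 50 µM, at 24 h. The same held without replicate 2 or 3 of 10 µM, or 3 of 50 µM, at 48 h. Without any other single array of the comparison it was 1. In DMSO arrays over the same times 9 of 11 were negative, with a median of -0.22 against 0.04. By value-table names at 50 µM and 48 h, 1 of 11 passed, miR-193a-3p at -0.84 ± 0.23 (adjusted p = 0.00703), where 37.8% of all miRNAs were called. Against 10 µM 1 of 11 passed, miR-148a-3p at -0.59 ± 0.21 (adjusted p = 0.0387), where 28.5% of all miRNAs were called. Of 12 p53-responsive miRNAs 11 were on the array and 5 were tested, and 0 of 5 were called in any comparison by limma. The share of all 288 miRNAs called in these comparisons ran from 0% to 37.8%, the highest at 50 µM and 48 h by value-table names. With 5 miRNAs tested, this count does not set the list apart. miR-34a-5p, the p53 target best known among them, gave 0.08 ± 0.26 at 24 h and -0.30 ± 0.24 at 48 h with doses pooled (adjusted p = 1 and 0.452).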

How the data were processed

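Spot files of 22 arrays were used. Per the file headers, Agilent Feature Extraction 10.7.3.1 made the deposited processed signal, a fluorescence intensity corrected for background. The authors' value table gives log2 signals with a minimum of -1, and the submitters' processing notes name R 2.15.2. Of 24 arrays in the design text, 2 were not analysed here. Non-outlier spots were averaged per probe, scaled by the 75th percentile of the 281 probes that every array read well above background, raised to a floor of 0.0471 where lower, and log2-transformed. The brightest probe stood for a miRNA. Of 290 miRNAs above background on at least 3 arrays, 2 stood at the floor on every array and were left out once this was seen, since they have no variance to test, and 288 were tested, with limma 3.58.1 in R 4.3.3, 1 model over 4 conditions for pooled doses and 1 over 6 groups for doses, and Benjamini-Hochberg adjustment at 0.05. Value-table columns were matched to arrays by rank correlation (lowest with the matched array 1, highest with another 0.968). Within-array differences used exact permutation tests in scipy, and correlations 100000 permutations where n was at least 10. On simulated data for CsA at 48 h, limma called 24 of 30 changes of 1 and 10 of 30 of 0.5 on the log2 scale, and 0 of 228 unchanged miRNAs. The simulated noise was independent between miRNAs and arrays, with no slide or array-wide part, so these rates need not hold for the measured arrays. Named miRNAs are the members, their other arms, the 5 most correlated miRNAs of each and list members that passed, with miR-122-5p and miR-34a-5p. The members and lists were chosen with earlier results of these data known.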

Additional observations from a re-analysis of the deposited data

Results flagged for a closer look

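Among 20 sets of 5 or 6 arrays examined for an array far from the others, 2 were picked out, and chance picks out about 1 in 20. For miR-192-5p in CsA at 24 h, the array filed as 10 µM, replicate 1, stood at 2.30 with the next array at 1.96. For miR-194-5p in DMSO at 48 h, replicate 5 stood at 0.011 with the next array at 0.39.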

How the results depend on the processing

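For miR-192-5p the CsA over DMSO difference at 48 h and the CsA difference between times, doses pooled, stayed negative and uncalled under all 10 other settings, from -0.70 to -0.16 and from -0.75 to -0.31, and so did those of miR-194-5p, from -0.57 to -0.04 and from -0.78 to -0.31. Leaving out 1 array at a time moved them from -0.36 to -0.23 and -0.49 to -0.32 for miR-192-5p, and from -0.23 to -0.10 and -0.53 to -0.37 for miR-194-5p, with no call gained. The 50 µM result at 48 h for miR-192-5p was called with value-table names (-0.47, adjusted p = 0.0149) and not with file names. With value-table names it was negative under all 9 other settings, from -1.04 to -0.30, with adjusted p from 0.00401 to 0.197 (limma). It kept the call without a filter on dim probes and lost it with slide as a block (-0.30), and without single arrays it ran from -0.54 to -0.42. In that comparison miR-194-5p was called after scaling over all probes (-0.86) and ran from -0.37 to -0.22 without single arrays. The Ex. numbers of the descriptions were used as a replicate block: the calls were unchanged for both miRNAs except for 50 µM against 10 µM at 48 h by value-table names, where miR-192-5p at -0.38 was called (adjusted p = 0.0383). That block moved the pooled 48 h count from 3 to 24 of 288. Deviations of samples with the same Ex. number correlated at a mean of 0.14 over 66 pairs, 37 of them above 0.1, against -0.076 over 130 pairs with other numbers, 45 of them above 0.1. The numbers were not taken to pair the samples in the main tests. Whether same-numbered samples belong together cannot be settled by these correlations. They use deviations from the means of small groups under file names, and leave out pairs within a group.

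Counts of called miRNAs moved with the settings that kept all arrays, and further without single arrays, up to 59 with doses pooled and 88 at 10 µM by file names. With all arrays they ran, at 48 h against DMSO, from 1 to 24 with doses pooled, from 0 to 29 at 10 µM and from 0 to 12 at 50 µM by file names, and from 49 to 155 at 50 µM by value-table names, where 50 against 10 µM gave 33 to 115. Small, uncalled values changed sign, and the cause was not tested. Scaling over all probes gave 0.14 for miR-192-5p and 0.13 for miR-194-5p (50 against 10 µM, 48 h, file names), 0.070 for miR-192-5p (10 µM, 24 h, value-table names) and -0.14 for miR-194-5p (50 µM, 24 h, value-table names). For these last 2 results, in the same order, quantile normalisation gave 0.058 and -0.25, normexp with quantiles 0.046 and -0.22, and the deposited values 0.12 and -0.20, with -0.021 for miR-194-5p over the mean of probes. For miR-194-5p, quantile normalisation gave -0.085 at 10 µM and 24 h by file names and -0.0072 at 24 h with doses pooled. Normexp with quantiles gave -0.074 in the first of these, 0.0053 for 50 against 10 µM by file names and 0.0093 at 10 µM and 48 h by value-table names, where slide as a block gave 0.030 and the deposited values 0.055. The value table gave 0.014 for miR-192-5p at 50 µM and 24 h, and 0.090 for miR-192-5p and 0.001036 for miR-194-5p at 50 against 10 µM, all by file names. Among within-array differences it gave 0.29 for miR-192-5p minus miR-194-5p and -0.16 for miR-194-5p minus miR-122-5p between DMSO times. The mean of probes gave 0.011 for the first of these, and 0.013 for miR-194-5p minus miR-122-5p at 24 h.

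Without single arrays, sign changes were seen within these ranges. By file names, miR-192-5p ran from -0.17 to 0.051 at 10 µM and 24 h and from -0.15 to 0.15 for 50 against 10 µM, and miR-194-5p from -0.28 to 0.35 at 50 µM and 24 h and from -0.15 to 0.065 for 50 against 10 µM. By value-table names, miR-192-5p ran from -0.15 to 0.095 at 10 µM and 24 h and from -0.20 to 0.0080 at 10 µM and 48 h. Under those names miR-194-5p ran from -0.098 to 0.021 at 10 µM and 48 h and from -0.15 to 0.17 at 50 µM and 24 h. The difference miR-192-5p minus miR-194-5p between DMSO times ran from -0.050 to 0.069, and miR-194-5p minus miR-122-5p at 24 h from -0.087 to 0.068. miR-192-5p minus miR-122-5p at 48 h stayed between -0.39 and -0.29.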
